A study of Mus musculus with 2 samples.

Results

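B cell progenitors are the bone marrow cells that are assembling an antibody heavy chain gene, testing its product, dividing and then assembling a light chain gene. They were picked out here in 2 droplet libraries of mouse bone marrow, 1 from a control genotype and 1 from a genotype that can express a MYC transgene, and 222 of the 23794 barcodes that passed the quality filters met the rule. Of these 222, 215 came from the control library and 7 from the MYC library. A barcode was taken as a B progenitor when it held at least 1000 UMIs (unique molecular identifiers, each a count of 1 captured RNA molecule) and under 10% mitochondrial UMIs. It also had to hold at least 2 UMIs of Cd79a and Cd79b together, at least 2 of the 5 genes Vpreb1, Vpreb2, Igll1, Dntt and Rag1 together, and less than 5% of its UMIs from S100a8 and S100a9, the most abundant genes of neutrophils. The members were therefore selected on measured values of these genes. Their levels are given as a description of the cells and support nothing.

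The control genotype was Mx1Cre+/-;Rosa26+/+ and the MYC genotype Mx1Cre+/-;Rosa26LSL-MYC/LSL-MYC. Both carry Mx1-Cre, a Cre recombinase under the interferon-inducible Mx1 promoter, which is active in blood stem cells and in other tissues. In the MYC genotype, Cre removes a stop cassette in front of a MYC transgene at both Rosa26 alleles. The series states as its purpose the expression profile of marrow blood cells after MYC overexpression in their stem cells. Age, sex, inducer treatment and the number of animals behind each library are not given in the sources used here. Each genotype had 1 library, so there is no replicate of any difference between them and no p-value is given. Values in parentheses after a share, fold or log2 ratio are its 95% counting interval, which leaves out any spread between animals. For levels and ratios of pooled UMIs the interval also leaves out the spread between cells, so a narrow one can rest on 1 cell. Animal, library and genotype cannot be told apart.

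A B cell progenitor is first recognised by the transcription factors Ebf1 and Pax5, which switch on the B lineage genes. Pro-B cells express the recombinase Rag1 and Rag2, which cuts the immunoglobulin genes, and Dntt (terminal deoxynucleotidyl transferase), which adds untemplated bases at the heavy chain joints. Once a heavy chain is made it pairs with the surrogate light chain, formed by the products of Vpreb1 or Vpreb2 and Igll1, and this pre-B cell receptor signals through Cd79a and Cd79b. The cells then divide several times as large pre-B cells with the recombinase turned down, stop dividing as small pre-B cells, and turn Rag1 and Rag2 on again to assemble a light chain gene. Il7r carries the interleukin 7 signal that progenitors need in the mouse.

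The 3 promoters below belong to genes that mark successive steps of this program and whose levels set the members apart from one another. Each is the stretch of 250 bases upstream of the RefSeq start of its gene in GRCm38.p6, and capitals mark E-boxes, CANNTG, the class of site bound by the lymphoid factors Tcf3 and Tcf4 among many others. The Igll1 window lies at chr16:16863986-16864235 on the minus strand, the Dntt window at chr19:41029025-41029274 on the plus strand and the Rag1 window at chr2:101649533-101649782 on the minus strand.

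Igll1: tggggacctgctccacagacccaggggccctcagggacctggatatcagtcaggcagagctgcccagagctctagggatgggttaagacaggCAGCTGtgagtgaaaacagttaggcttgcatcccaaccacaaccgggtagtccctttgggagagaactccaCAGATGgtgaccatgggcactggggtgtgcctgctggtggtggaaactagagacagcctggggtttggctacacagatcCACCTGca

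Dntt: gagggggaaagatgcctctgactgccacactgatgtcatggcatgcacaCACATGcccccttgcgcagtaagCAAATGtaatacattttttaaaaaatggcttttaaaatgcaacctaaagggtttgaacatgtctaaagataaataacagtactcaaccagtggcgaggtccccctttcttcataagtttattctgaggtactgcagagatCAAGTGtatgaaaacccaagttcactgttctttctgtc

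Rag1: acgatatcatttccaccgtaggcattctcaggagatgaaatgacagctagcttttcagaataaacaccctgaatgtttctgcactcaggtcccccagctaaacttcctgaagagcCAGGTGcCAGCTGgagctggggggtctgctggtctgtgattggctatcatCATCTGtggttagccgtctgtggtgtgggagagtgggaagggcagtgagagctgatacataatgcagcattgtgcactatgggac

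Each of the 3 windows held 3 E-boxes. Among 32851 upstream windows of 250 bases, 66.2% held at least 1 E-box, so a match is common. The EBF site, taken as TCCC and GGGA with 2 free bases between them and searched on both strands, was found in none of the 3 and in 0.779% of all windows. These are matches of letters and no measurement of binding. In the GENCODE vM21 annotation of GRCm38, Igll1 spans 16860671 to 16863985 on chromosome 16, close to Vpreb1 at 16868403 to 16870843 on the same strand. Vpreb2 lies on the same chromosome at 17980428 to 17981273. The transcripts of Vpreb1 and Vpreb2 were identical at 739 of 766 aligned bases (96.5%), and at 288 of the last 300, so reads may be split between both copies and their separate levels are uncertain.

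The control library held 17073 barcodes and 131884603 UMIs and the MYC library 14496 barcodes and 110012176 UMIs. After the filters 13251 and 10543 barcodes remained, with medians of 6704 and 7570 UMIs. The libraries shared 97 barcode sequences, and no member had a shared one. A member held 1346 to 54397 UMIs in the control (median 6450) and 2798 to 24120 in the MYC library (median 7368). Doublet calling marked 670 control barcodes, 6 of them members, and 0 barcodes of the MYC library, where it did not work.

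B progenitors were far scarcer in the MYC library. In the control 215 of 13251 barcodes were members, 1.62% (1.41 to 1.85). In the MYC library 7 of 10543 were, 0.0664% (0.0267 to 0.137). The control share was 24.4 times the other (11.7 to 61.5), and MYC minus control was -1.56 percentage points (-1.79 to -1.34). Against the 1566 and 559 barcodes that held at least 2 UMIs of Cd79a and Cd79b, the shares were 13.7% and 1.25%. The control's was 10.96 times the other (5.23 to 27.6). These barcodes are not the B lineage alone, since cells without B identity, described below, also pass this cut. Mature B-like barcodes, defined below, and members were 636 and 215 of the 1566, but 141 and 7 of the 559. The progenitors were thus fewer among the barcodes with Cd79a and Cd79b as well as among all barcodes past the filters.

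Other lymphoid cells were also fewer, by smaller factors. Mature B-like barcodes (at least 2 UMIs of Ms4a1 and Ighd together and none of the 5 progenitor genes) were 4.80% of control barcodes and 1.34% of MYC barcodes, a 3.59-fold difference (2.99 to 4.34). T cell barcodes, defined by the Cd3 genes, were 2.08% and 1.02%, a 2.03-fold difference (1.62 to 2.56). Barcodes with at least 2 UMIs of Dntt but under 2 of Cd79a and Cd79b numbered 78 and 21, which is 2.96 times as large a share in the control (1.81 to 5.04). Ebf1 was seen in 6 of the 78 (7 UMIs) and in 2 of the 21 (10 UMIs, 32.6 CPM), and Igll1 in 0 of both. Siglech, which marks plasmacytoid dendritic cells, was seen in 59 of the 78 and 14 of the 21, and Flt3, a receptor of early progenitors, in 56 and 15. The interval of the progenitors' fold lay above that of each of these classes, with its lower end at 11.7. Neutrophil-rich barcodes went the other way, at 55.7% of control barcodes and 60.2% of MYC barcodes.

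**Figure D1:**
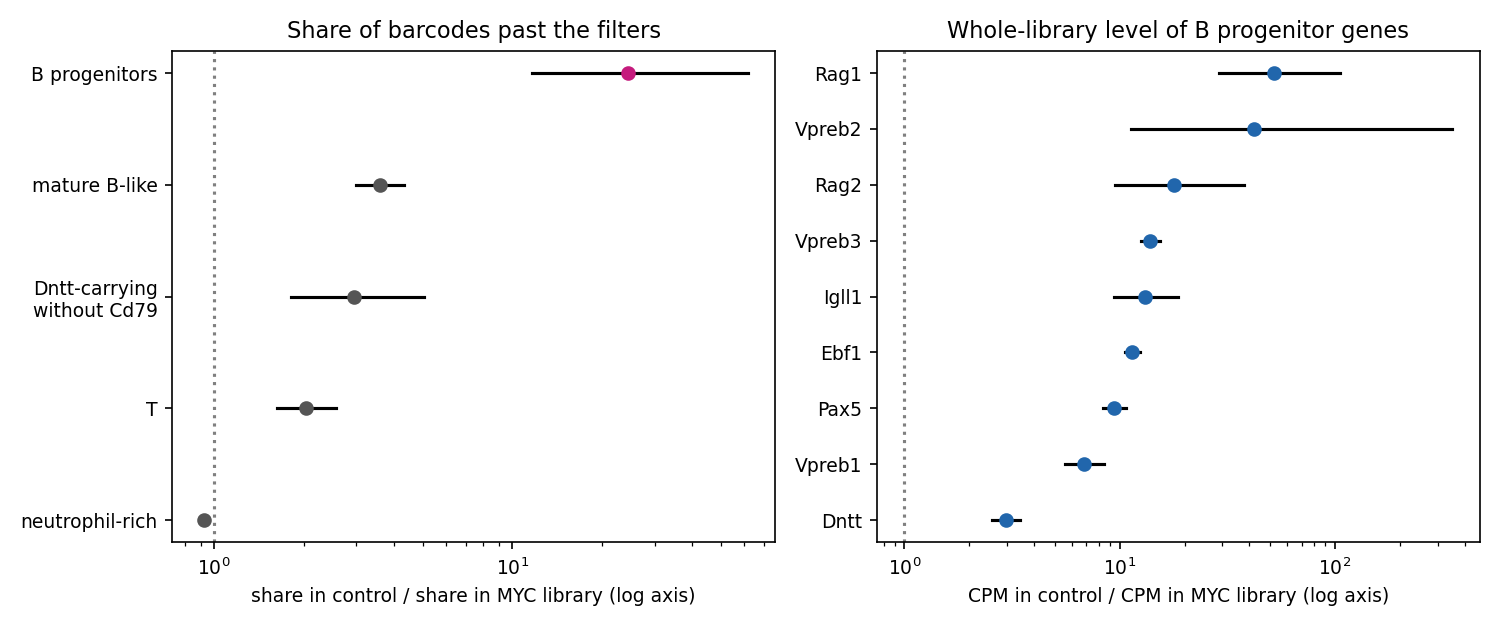
Share of barcodes in the control divided by the share in the MYC library (left, 5 classes of barcodes) and CPM (UMIs of a gene scaled to 1000000) of 9 B progenitor genes over all barcodes past the filters, control divided by MYC (right), both on log axes with bars for the 95% counting interval. B progenitors stand at 24.4, right of the other classes, and among the genes Rag1 stands at 52.3 and Dntt at 2.96.

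Levels of B progenitor genes were also summed over all barcodes past the filters, in CPM (UMIs of a gene per 1000000 UMIs), and were lower in the MYC library for all 9 genes examined. For 4 of the 5 rule genes most of the control's UMIs lay in the members, so their sums largely restate the count of members and are no separate support. Of the 4 genes outside the rule, Rag2, Vpreb3, Ebf1 and Pax5 had 47.5%, 41.0%, 36.2% and 26.2% of their control UMIs in the members. Rag1, the recombinase subunit that makes the cut with Rag2, gave 700 UMIs in control barcodes and 11 in MYC barcodes, which is 52.3 times lower in CPM. Rag2 gave 217 and 10 (17.8 times), and Igll1, the lambda5 chain, 605 and 38 (13.1 times). Ebf1 gave 9800 and 703 (11.5 times) and Pax5 3350 and 292 (9.42 times). Vpreb3, a chaperone-like protein that binds immunoglobulin chains in B cells, gave 6603 and 392 (13.8 times). Vpreb1 gave 897 and 108 (6.82 times).

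Dntt stood apart, at 858 and 238 UMIs (2.96 times lower). Only 19.5% of the control's Dntt UMIs lay in the progenitors, against 82.1% for Vpreb1, 86.1% for Igll1 and 76.3% for Rag1, and 521 of the 858 lay in the 78 barcodes without Cd79 described above. In the MYC library 49.1% of the Vpreb1 UMIs lay in the 7 members. The remainder lay in barcodes that the rule left out, and how it was distributed over them was not examined. In such sums over a library, fewer cells of a type and less RNA per cell cannot be told apart.

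The count at the threshold differed as well. In the control, 61 members had exactly 2 UMIs of the 5 progenitor genes, and 84 further barcodes that met every other condition had exactly 1. In the MYC library these were 0 and 11. With at least 1 UMI allowed there were 299 control and 18 MYC barcodes, and with at least 4 required 123 and 5. The control's share was then 13.2 (8.22 to 22.6) and 19.6 (8.16 to 61.3) times the MYC library's. The fold itself was above 10 on both sides of this threshold, but both intervals reach below 10. The fold also moved with the threshold on Cd79a and Cd79b. There 8 control and 2 MYC members had exactly 2 UMIs, and 19 control and 7 MYC barcodes fell outside with 1. Admitting those gave 234 and 14 barcodes, and the control's share was then 13.3 times the other (7.77 to 24.7). When members without B identity and the plasma-like cell were left out of these as well, 209 and 6 remained, at 27.7-fold (12.5 to 76.4). With every barcode thinned to 1000 UMIs, 32 control and 1 MYC barcode met the rule.

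The members carried the B lineage identity that the label implies. Ebf1, which the rule did not use, reached 1484 CPM in the control members, against 0.486 CPM in T cell barcodes and 20.1 CPM in neutrophil-rich ones. Vpreb3 reached 1133 CPM against 3.40 CPM in T cell barcodes. Of the 5 defining markers (Vpreb1, Igll1, Dntt, Rag1, Ebf1) all were detected, but 4 of them are genes of the rule. Ebf1 and Vpreb3 do not single out progenitors, since only 36.2% and 41.0% of their control UMIs lay in the members. Of other cell types, T and NK markers summed to 47.3 CPM over the control members and 7 of 8 had a UMI, with Ncr1 at 0. Neutrophil markers summed to 6334 CPM with all 10 seen, and from 1182 to 49493 CPM in single members. Their part in the results was not tested.

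Not every member was a B progenitor by its other genes. In the control 8 members had under 2 UMIs of Ebf1, Vpreb3 and Pax5 together, and each of the 8 was at 0. Of these, 3 had 16 to 37 UMIs of Siglech, and 4 had 189 to 450 of Mpo, the granule enzyme of early myeloid cells, with 1 cell in both sets. The deepest member, with 54397 UMIs, was among them. A further control member was plasma-like, with 377 UMIs of Jchain, 6079 of Igkc and 4507 of Ighm. In the MYC library 2 of 7 members had 0 UMIs of the 3 identity genes. These 9 control and 2 MYC cells met the rule and are counted, and many results are also given without them. Without them 206 and 5 members were left, and the control share was 32.8 times that of the MYC library.

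Within the control, members fell into 4 groups by Dntt (at least 2 UMIs) and by division (at least 5 UMIs of the 8 mitosis genes Mki67, Top2a, Cdk1, Birc5, Ccna2, Ccnb1, Cenpa and Ube2c together). Dntt-positive non-dividing cells numbered 18, Dntt-positive dividing cells 8, Dntt-negative dividing cells 98 and Dntt-negative non-dividing cells 91. Dividing cells were 49.3% of the members (42.4 to 56.2) and Dntt-positive ones 12.1% (8.05 to 17.2). Depth differed between the groups. The median was 5191 and 4271 UMIs in both non-dividing groups and 15487.5 and 14319.5 in the dividing ones. A threshold in UMIs is reached more easily by a deep barcode, and with every member thinned to 2000 UMIs, which 211 reached, 34.6% counted as dividing and 4.27% as Dntt-positive. The names used below are those of the thresholds and not of sorted stages.

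The genes of the rule, given as a description, were spread unevenly over these groups. Vpreb1 stood at 2222 CPM in Dntt-positive non-dividing cells, 567 in Dntt-positive dividing cells, 248 in Dntt-negative dividing cells and 7.45 in Dntt-negative non-dividing cells. Igll1 followed the same order, at 1319, 472, 184 and 2.48 CPM. Rag1 had another order, at 426, 94.5, 67.6 and 897 CPM, high in both non-dividing groups and low in both dividing ones. Of the 8 Dntt-positive dividing cells, 2 are among the set-apart cells and hold much of the group's UMIs. Without them Vpreb1 there was at 1113 CPM, Igll1 at 928 and Rag1 at 186, and the order of the groups was the same for each of the 3 genes. In single cells, Vpreb1 in the 18 Dntt-positive non-dividing cells ran from 0 to 48.6 UMIs per 10000 with a median of 24.98, and 16 of the 18 had at least 1. Rag1 in the 91 Dntt-negative non-dividing cells ran from 0.865 to 44.9 per 10000, with a median of 7.94.

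Surrogate light chain and Rag1 were seldom high in the same cell. At 2 UMIs or more, 65 control members had the surrogate light chain genes without Rag1, 125 had Rag1 without them, 11 had both and 14 neither. All 7 Dntt-positive non-dividing cells with Rag1 also had the surrogate light chain, while 89 of the 91 Dntt-negative non-dividing cells had Rag1 without it. The rule itself favours this, since a cell needs only 1 of these genes to enter, so a member without one of them must have another.

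**Figure D2:**
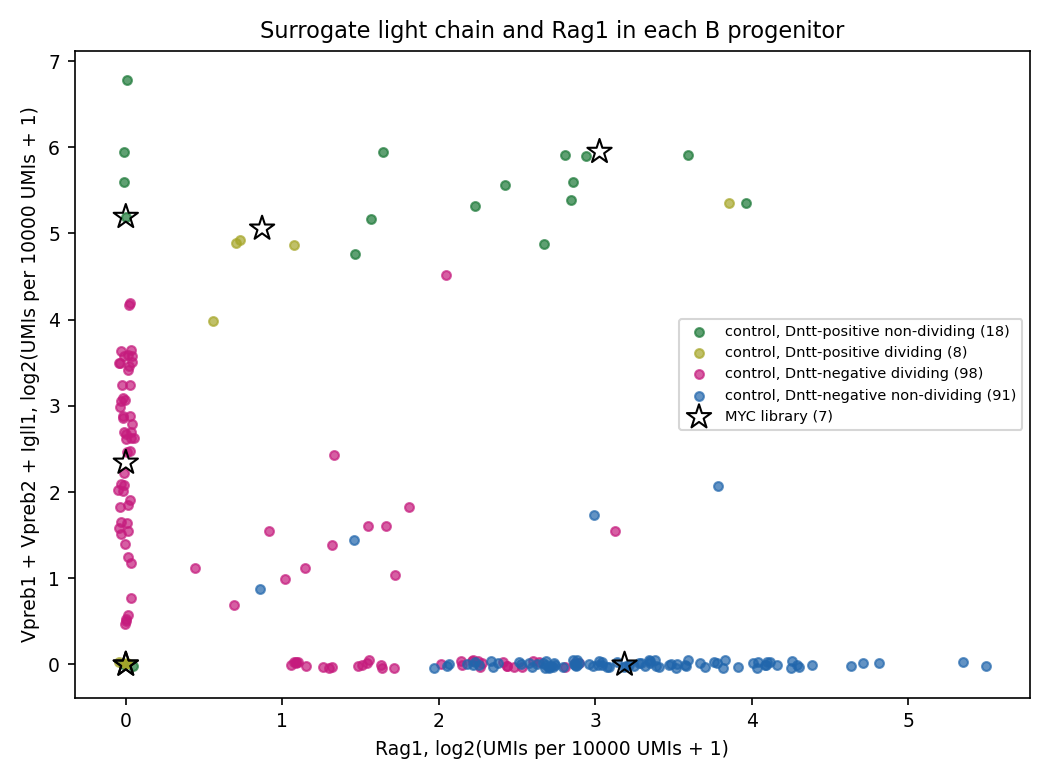
Surrogate light chain UMIs (Vpreb1, Vpreb2 and Igll1 summed) against Rag1 UMIs in each member, both as log2 of UMIs per 10000 with 1 added and with points moved slightly sideways so that overlapping cells can be seen. Colours give the 4 control groups and stars the 7 members of the MYC library. Most of the 91 Dntt-negative non-dividing cells lie along the lower axis, and most of the 18 Dntt-positive non-dividing cells at the top.

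Rag2, which the rule did not use, was at 135 CPM in Dntt-positive non-dividing cells, 37.8 and 30.6 CPM in the Dntt-positive and Dntt-negative dividing cells, and 77.0 CPM in Dntt-negative non-dividing cells. The Dntt-positive dividing value rests on few UMIs and on the set-apart cells: without them it was 6 UMIs, or 74.2 CPM (27.2 to 162), an interval that takes in the 77.0 CPM of Dntt-negative non-dividing cells. The same interval takes in the 33.8 CPM of the Dntt-negative dividing cells without the set-apart cells, so the place of the Dntt-positive dividing cells is uncertain. Between dividing and non-dividing members, Rag2 was lower by a log2 ratio of -1.50 (-2.09 to -0.90), from 59 and 44 UMIs. Among Dntt-negative cells with Rag1 and without the surrogate light chain, dividing and non-dividing, it was at 64.5 and 80.5 CPM (-0.32, -1.16 to 0.50). Ebf1 was at 3126, 882, 1103 and 2966 CPM in the order above, lower in both dividing groups than in both non-dividing ones. Pax5 was at 447, 81.9, 342 and 571 CPM. Without the set-apart cells the Dntt-positive dividing cells had 1732 CPM of Ebf1 and 161 of Pax5, each still below both non-dividing groups.

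The Dntt-positive non-dividing cells, the group with most of the pro-B features, had more of some genes that were low in the Dntt-negative cells. Lef1, a transcription factor of early lymphoid cells, was at 820 CPM there, 195 and 78.6 in the dividing groups and 27.3 in Dntt-negative non-dividing cells. Erg, a factor shared with stem cells, was at 228, 183, 7.51 and 2.48 CPM. Without the set-apart cells the Dntt-positive non-dividing and dividing cells had 989 and 383 CPM of Lef1 and 276 and 235 of Erg, so both genes were also present in Dntt-positive dividing cells. Against Dntt-negative non-dividing cells, a gene was called when its mean was at least 50 CPM, its fold at least 2 and its interval excluded no change. By that rule 259 of 2637 genes (9.82%) were higher and 179 (6.79%) lower. Scaling by the median of ratios gave 179 higher and 230 lower, so the balance of directions depended on the scaling. That scaling moves every ratio by 0.19 on the log2 scale.

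Of 23 tested B lineage transcription factors, 5 were higher and 7 lower in the Dntt-positive non-dividing cells. Lef1 (log2 ratio 4.91), Erg (6.52), Tcf4 (1.56, an E protein), Bcl11a and Irf8 were higher. For Irf8 the higher level went with the Siglech-rich cells, and without them it was at 188 against 174 CPM. Ikzf3, the factor Aiolos of later pre-B cells, had 0 UMIs there, which allows up to 31.2 CPM, against 196 CPM in the Dntt-negative cells. Klf2, a factor of resting lymphocytes, was at 104 against 517 CPM, and Spib at 83.1 against 566 CPM. Without the Siglech-rich cells Klf2 had 0 UMIs and Spib 37.6 CPM, so those cells held all of the Klf2 and most of the Spib. The list then had 5 of 23 higher and 8 lower.

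Of 16 tested genes of later pre-B and immature B cells, 8 were lower and 2 higher in the Dntt-positive non-dividing cells, with a median log2 ratio of -1.83 against -0.05 over all genes. Il2ra, which encodes CD25, the surface marker of small pre-B cells, had 0 UMIs against 65 (161 CPM). Ms4a1, which encodes CD20, had 0 against 43 UMIs (107 CPM). H2-Aa, a class II chain, was among those higher. The class II chaperone Cd74 was at 717 against 392 CPM, under the 2-fold limit. Of its 69 UMIs, 38 and 27 came from the Siglech-rich pair of cells in this group, and without them it was lower, at 50.1 CPM. Ly6d, from the list of early surface genes, was at 177 against 944 CPM, and 14 of its 17 UMIs lay in the same pair. Without those cells 3 UMIs were left, 37.6 CPM (7.75 to 110). Left without these cells, the pre-B and immature B list had 9 of 14 lower and 1 higher, with a median of -3.08.

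Of 13 tested receptor signalling genes 2 were higher and 3 lower in the Dntt-positive non-dividing cells, with a median of -0.08 against -0.05 over all genes. Without the set-apart cells 3 of 13 were higher and 2 lower, with a median of -0.28 against -0.06. Inpp5d, the inhibitory phosphatase SHIP1, was at 312 against 99.4 CPM and the co-receptor Cd81 at 104 against 42.2 CPM. The kinase Lyn was at 114 against 320 CPM and Cd72, an inhibitory receptor, at 104 against 248 CPM. The adaptor Blnk, which carries the pre-B receptor signal, was at 582 CPM in the Dntt-positive non-dividing and 306 in the Dntt-negative non-dividing cells, under the 2-fold limit, and at 664 without the set-apart cells, past it. Syk, the kinase that acts on Cd79a and Cd79b, was at 322 and 874 CPM, a log2 ratio of -1.44 (-2.02 to -0.91). Outside this list, Il7r was at 156 and 355 CPM (-1.19, -2.06 to -0.42). Ighm, the heavy chain constant gene, was at 1817 and 5924 CPM. T cell barcodes of the same library, which should lack both genes, held 455 CPM of Ighm and 630 of Igkc, and this is the background to read them against.

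**Figure D3:**
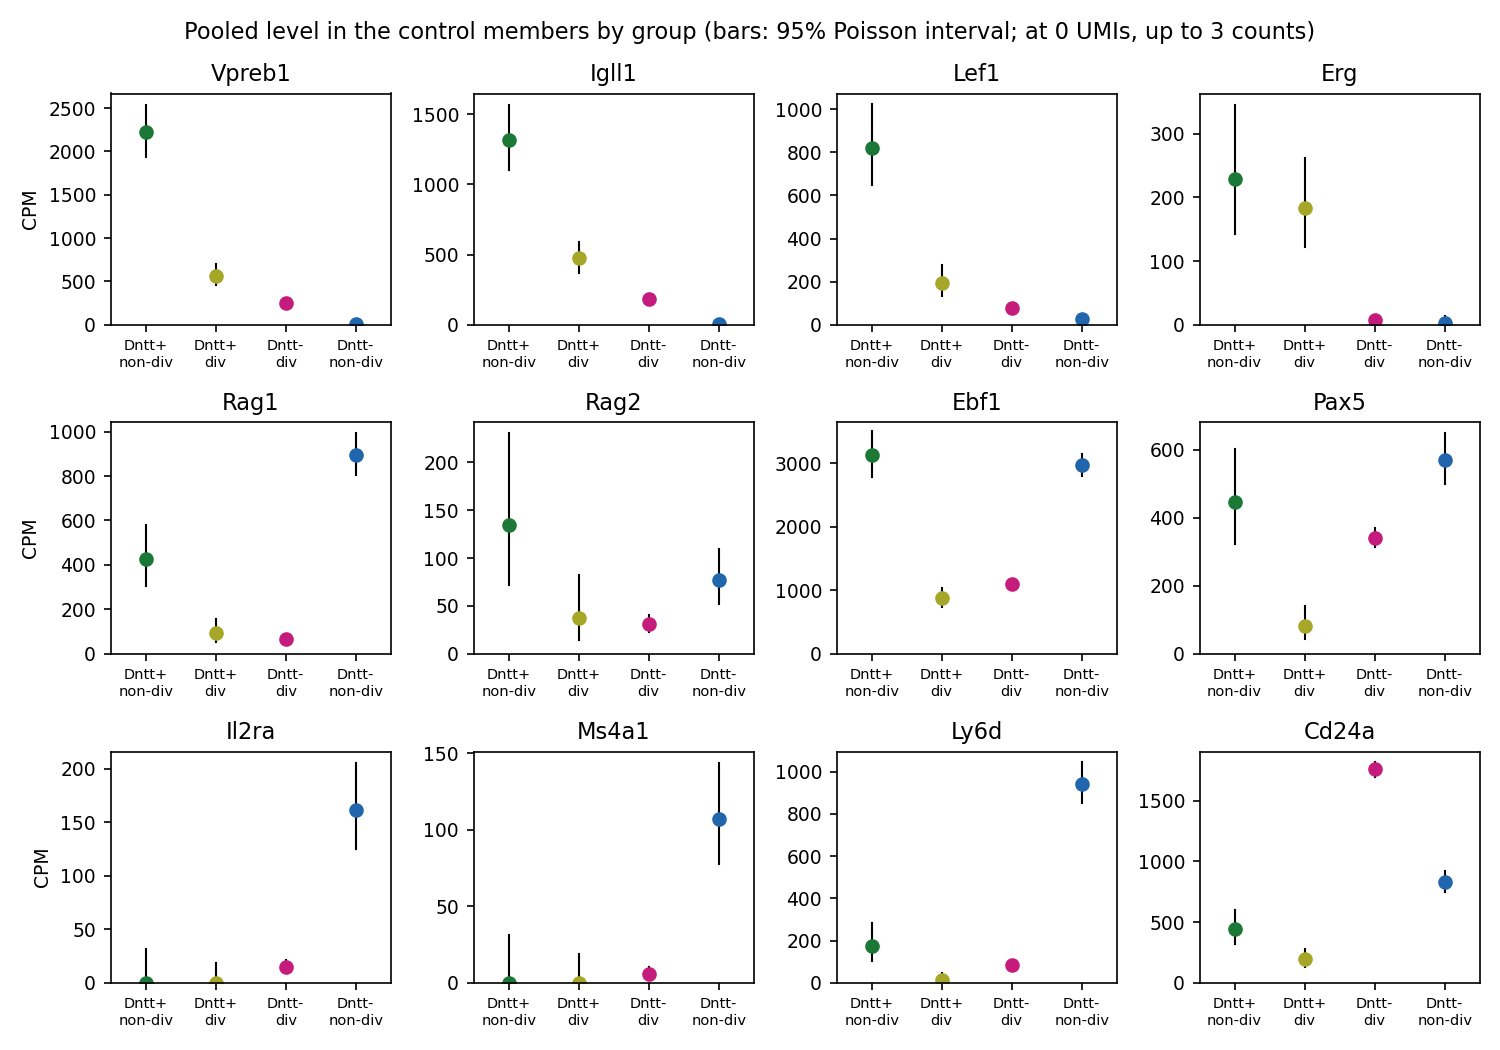
Pooled CPM of 12 genes in the 4 groups of control members, ordered from Dntt-positive non-dividing (18 cells) through both dividing groups (8 and 98) to Dntt-negative non-dividing (91), where div means dividing and non-div non-dividing. Bars are 95% Poisson intervals of the pooled count, or reach 3 counts where there were 0 UMIs. Vpreb1 and Igll1 step down from left to right, Rag1, Rag2, Ebf1 and Pax5 are lower in both dividing groups, and Il2ra, Ms4a1 and Ly6d are highest in the last group. For Rag2 the Dntt-positive dividing value is uncertain, at 74.2 CPM (27.2 to 162) without the set-apart cells.

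Dividing and non-dividing members differed in many genes. Of 2700 tested, 516 (19.1%) were higher and 305 (11.3%) lower in the dividing cells, and median-of-ratios scaling gave 688 and 240. Without the set-apart cells 476 of 2675 (17.8%) were higher and 290 (10.8%) lower. The rule of division used 8 mitosis genes, so the cell cycle lists describe the choice. All 24 tested S phase genes and 37 of 39 G2/M genes were higher. The highest ratios outside these lists included Plk1, a mitotic kinase, with 204 UMIs against 0, and Pclaf, which binds the replication clamp, with 1542 UMIs against 10.

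The biosynthetic genes that MYC is known to induce were higher in the dividing cells. Of 33 tested, 28 were higher and none lower, with a median log2 ratio of 1.49 against 0.14 over all genes. Npm1, a nucleolar histone chaperone, was at 1505 CPM in dividing and 483 in non-dividing cells (log2 ratio 1.64, 1.45 to 1.83). Ncl, nucleolin, was at 1170 and 387 CPM (1.60, 1.38 to 1.82), and the cyclin Ccnd2 at 165 and 66.2 CPM. Ribosomal protein genes were higher for 40 of 80, with none lower. Without the set-apart cells 27 of 33 MYC-induced and 31 of 79 ribosomal protein genes were higher, with none lower in either list. These lists stand beside the 19.1% of all tested genes that were higher, or 17.8% without the set-apart cells. The difference was much smaller among the Dntt-negative cells with at least 2 UMIs of Rag1 and under 2 of the surrogate light chain, where 35 dividing cells were set against 89 non-dividing ones, without the set-apart cells. There 3 of 24 tested MYC-induced genes were higher and none lower, with a median of 0.37 against 0.11, and 0 of 79 ribosomal protein genes were called in either direction. Over all 2644 genes tested there, 11.9% were higher and 5.6% lower, so 3 of 24 is near the background. Npm1 was at 504 CPM in these dividing cells and 467 in the non-dividing ones.

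Of 21 tested B lineage transcription factors 9 were lower in the dividing cells and none higher, with a median of -0.89, so 12 were not called. Without the set-apart cells 8 of 22 were lower and none higher, with a median of -0.74. Among the Rag1-only cells just described 4 of 20 were lower and none higher, with a median of -0.54. Over all dividing and non-dividing members, of 14 receptor signalling genes 1 was higher and 3 lower, and of 9 early surface genes 1 was higher and 3 lower. Without the set-apart cells these were 1 and 1 of 14, and 1 and 2 of 9. Ebf1 was at 1085 against 2997 CPM (log2 ratio -1.47, -1.56 to -1.37), Sox4 at 480 against 1353 CPM (-1.50) and Foxo1, which drives Rag gene expression, at 79.9 against 225 CPM (-1.49). Klf2 was at 86.8 against 437 CPM (-2.33). Among the Rag1-only cells Ebf1 was at 1558 against 2957 CPM, under the 2-fold limit, and Klf2 at 247 against 527 CPM. Of 15 tested pre-B and immature B genes 10 were lower, with a median of -2.20, and without the set-apart cells 11 of 15, with a median of -2.00. Il2ra was at 13.2 against 130 CPM, and the early surface gene Ly6d at 78.8 against 796 CPM. In the Rag1-only cells 11 of 16 pre-B and immature B genes were lower and 2 higher, with a median of -1.32. Of 8 survival and death genes 5 were lower, among them the growth brakes Btg1 (288 against 1367 CPM) and Btg2 (95.2 against 577 CPM).

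Cd24a, the heat-stable antigen of B progenitors, was an exception among surface genes, at 1624 CPM in dividing and 756 in non-dividing cells (log2 ratio 1.10, 0.95 to 1.26). It was 195 CPM in Dntt-positive dividing cells (284 without the set-apart cells) and 1755 in Dntt-negative dividing ones, so the high value belonged to the latter. Among the Rag1-only cells Cd24a was at 1244 CPM in dividing and 841 in non-dividing ones, under the 2-fold limit. Markers of other cell types differed with depth between Dntt-negative groups. Neutrophil markers summed to 5971 CPM in dividing and 8334 in non-dividing cells, and erythroid markers to 1166 and 2645 CPM. Their part in the differences above was not tested.

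Igkc, the kappa light chain constant gene, shows how 1 cell can set a pooled level. It was at 4121 CPM in Dntt-negative dividing cells and 2583 in Dntt-negative non-dividing cells. The plasma-like cell gave 6079 of the 7135 UMIs behind the first value, and without the set-apart cells Igkc there was at 655 CPM, close to the 630 CPM of T cell barcodes. The median cell of that group had 6.84 Igkc UMIs per 10000. Ighm was at 4715 CPM in the Dntt-negative dividing cells with the set-apart cells and 2316 without them, against 5924 in the non-dividing ones, which held none.

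Dntt-negative dividing cells were split by the rule genes. Those with at least 2 UMIs of the surrogate light chain (53 cells) were compared with those that had under 2 of it and at least 2 of Rag1 (35 cells, called Rag1 only), with the set-apart cells left out of both. The median depth was 21486 UMIs in the surrogate light chain cells and 10547 in the Rag1-only cells, while the median count of mitosis UMIs was 70 and 74. This split was chosen after the data were seen. Of 2714 genes 274 (10.1%) were higher with the surrogate light chain and 251 (9.25%) lower, and median-of-ratios scaling, which shifts every ratio by 0.16 on the log2 scale, gave 401 and 178.

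The surrogate light chain cells had more of the growth genes. Of 33 tested MYC-induced genes 27 were higher and none lower, with a median log2 ratio of 1.46 against 0.02 over all genes. Ldha, lactate dehydrogenase, was at 293 against 22.4 CPM, C1qbp, a mitochondrial protein, at 194 against 25.2 CPM, and Npm1 at 1773 against 504 CPM. The cell cycle kinase Cdk6 was at 212 against 28.0 CPM and its partners Ccnd2 at 192 against 39.2 CPM and Ccnd3 at 710 against 275 CPM. Mif was at 566 against 84.1 CPM. S phase genes were higher for 19 of 30, with a median of 1.12, and ribosomal protein genes for 39 of 79. Myc itself was at 24.9 and 19.6 CPM, below the level at which genes were tested.

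Of 8 tested pre-B and immature B genes 4 were lower in the surrogate light chain cells than in the Rag1-only ones, with a median of -1.51. Cd74 was at 38.6 against 233 CPM and Klf2 at 44.6 against 247 CPM. Btg1 was at 236 against 533 CPM and Btg2 at 61.8 against 230 CPM. G2/M genes were lower for 13 of 49 (median -0.79) and mitosis genes for 3 of 8, so S phase and G2/M genes differed in opposite directions. Cd24a was at 2137 against 1244 CPM, under the 2-fold limit.

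Some of the largest ratios in this split came from single cells. Of 114 Mcpt8 UMIs, a basophil granule protease, 111 were in 1 cell, and of 473 Mpo UMIs 433 were in 1 cell. Without the 2 cells rich in such granule genes, the MYC-induced list had a median of 1.51. Genes of other cells also differed here: Lyz2, of myeloid cells, was at 369 against 1093 CPM and Hba-a2, a globin, at 217 against 832 CPM. Single cells weighed on these too. The richest cell held 218 of 430 Lyz2 UMIs in the surrogate light chain group and 173 of 390 in the Rag1-only group, with a median of 1 UMI in both, and without these cells Lyz2 was at 186 against 641 CPM. For Hba-a2 1 Rag1-only cell held 114 of 297 UMIs, and without the richest cell of each group it was at 196 against 520 CPM. Their part in the list medians was not tested.

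**Figure D4:**
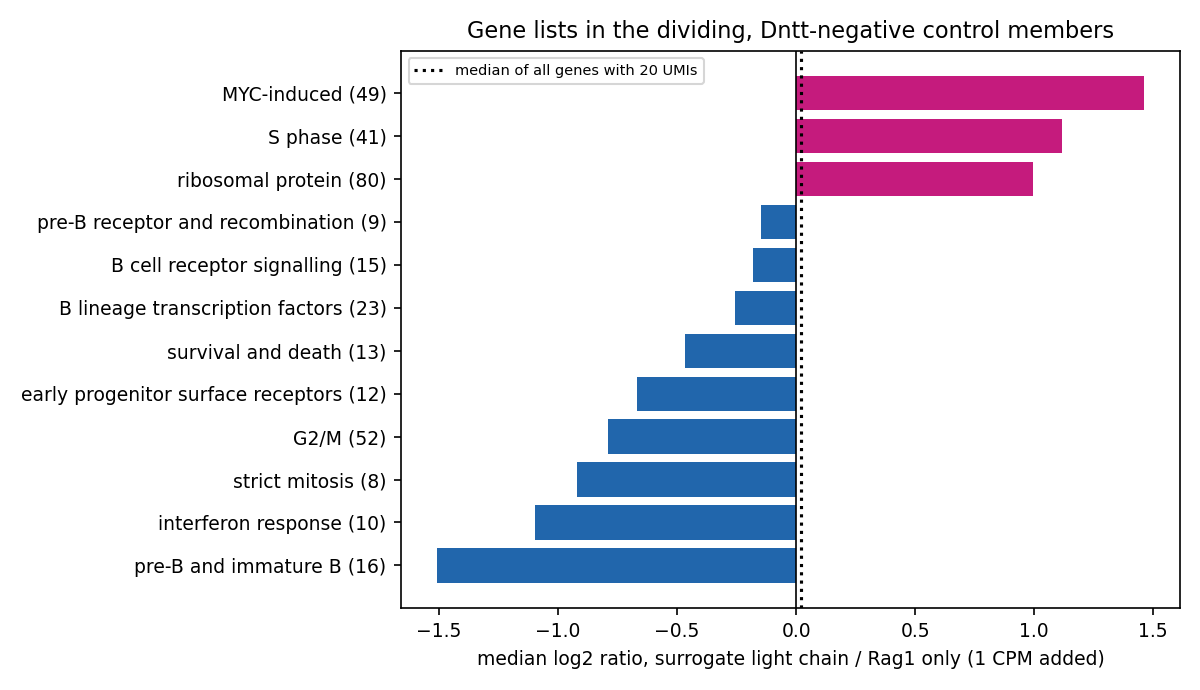
Median log2 ratio, surrogate light chain over Rag1 only, of 12 gene lists in the Dntt-negative dividing control members, with the number of genes in parentheses and a dotted line at the median of all genes with at least 20 UMIs (0.02). The MYC-induced, S phase and ribosomal protein lists lie to the right, at 1.46, 1.12 and 0.99, and the pre-B and immature B list lies farthest left, at -1.51.

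Against mature B-like cells of the control, with the 9 set-apart members left out, 304 of 2532 genes (12%) were higher in the progenitors and 166 (6.56%) lower, and median-of-ratios scaling gave 184 and 221. Il7r was at 275 against 10.2 CPM, Lef1 at 121 against 5.21 CPM, Sox4 at 708 against 56.4 CPM and Myb, which progenitors of all blood lineages need, at 499 against 55.3 CPM. Of 19 tested pre-B and immature B genes 17 were lower. The mature B-like barcodes were picked on Ms4a1 and Ighd, so a lower level of these was fixed by the choice, and of the other 17 genes 15 were lower. Fcer2a, the low affinity IgE receptor CD23, had 0 UMIs against 771 and Cd74 was at 140 against 4654 CPM.

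The 7 members of the MYC library are few enough to give one by one. The first held 5336 UMIs, with 12 of Vpreb1, 7 of Igll1, 21 of Ebf1 and 17 of Vpreb3, no Dntt and no Rag1, and 63 of Igkc. The second held 24120 UMIs and 14 of Dntt, and 0 of Ebf1, Vpreb3, Vpreb1 and Igll1. It had 10 UMIs of Cd34, a surface sialomucin, and 5 of Kit, the stem cell factor receptor, both found on stem and multipotent cells, and 107 of the mitosis genes. The third held 7368 UMIs, with 1 of Vpreb1, 2 of Igll1, 14 of Ebf1 and 18 of Vpreb3, and 21 mitosis UMIs.

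The fourth of these cells held 9663 UMIs, 5 of Dntt and 0 of Ebf1 and Vpreb3. It had 31 UMIs of Siglech, 10 of Ccr9 and 57 of Cd74, the genes of plasmacytoid dendritic cells. The fifth held 3702 UMIs, with 3 of Rag1, 12 of Ebf1 and 16 of Vpreb3 and no surrogate light chain. It was the only one with the Rag1-only pattern of the 89 control cells. The sixth held 2798 UMIs, with 14 of Vpreb1, 3 of Igll1, 1 of Dntt, 2 of Rag1 and 8 of Ebf1. The seventh held 12069 UMIs, with 26 of Vpreb1, 12 of Igll1, 7 of Dntt, 14 of Ebf1 and 95 mitosis UMIs. So 5 cells had B identity, 4 of them with at least 2 surrogate light chain UMIs. Il2ra and Ms4a1 were at 0 in all 7, which allows up to 46.1 CPM of each over these cells together, so their absence is not shown.

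By the same thresholds the MYC members were 1 Dntt-positive non-dividing, 2 Dntt-positive dividing, 1 Dntt-negative dividing and 3 Dntt-negative non-dividing cells. Dividing cells were thus 3 of 7 (42.9%, 9.90 to 81.6), an interval that takes in the control's 49.3%. No group held 5 MYC cells, so no comparison within a group was made, and pooled differences mix any change within cells with a different mixture of them. The MYC feature of the matrix had 0 UMIs in the 65056 UMIs of the 7 cells, which allows up to 46.1 CPM, against 312 UMIs (3.01 CPM) over the library. At this depth the transgene's RNA was not detectable in them, and the sequence behind the feature is not stated.

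Pooled over the 7, 200 of 2701 genes (7.4%) were higher than in the control members and 130 (4.81%) lower. Without the set-apart cells these were 161 (5.97%) and 51 (1.89%) of 2697, and by median-of-ratios scaling of all members 77 and 320. The balance of directions turned with the scaling. On simulated counts, which held no spread between cells, this comparison also called genes that had not been changed. The first draw gave the highest share of them, larger than any of these percentages, and the further draws gave smaller shares. The counts are therefore a description only. Many named differences rested on the 2 cells without B identity. Cd74 was at 1015 against 173 CPM, with 57 of 66 UMIs in the Siglech-rich cell. Igkc has no stable direction. It was lower with all members kept (log2 ratio -1.47) and higher without the set-apart cells (1.29) or with at least 4 UMIs of the progenitor genes (0.84). Of the 78 Igkc UMIs in the 5 MYC cells with B identity 63 lay in the first, and without that cell as well Igkc was lower again, at 578 against 1023 CPM (-0.82, -1.66 to -0.10). Ighm was lower with the set-apart cells (-1.44) and at -0.04 without them.

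A few differences kept their direction with and without the set-apart cells, and when each of the 5 MYC cells with B identity was left out in turn. Vpreb1, a gene of the rule and so a description, was higher in the MYC members by a log2 ratio of 1.40 with all cells and 2.30 without the set-apart ones. Of its 53 UMIs in the 5 cells 26 lay in the seventh, and leaving out that cell gave 2.03 (1.42 to 2.59). Bach2, a repressor that restrains plasma cell genes, was at 61.5 against 496 CPM (-3.01) and, without the set-apart cells, at 128 against 554 CPM (-2.11). Sox4 was at 277 against 662 CPM (-1.26) and at 128 against 708 CPM (-2.47). Bach2 had 4 UMIs in the MYC members both ways, and Sox4 had 18 with all members and 4 without the set-apart cells. With 1 more cell left out, Bach2 ran from -2.84 to -1.73 and Sox4 from -3.29 to -2.08, on 2 to 4 UMIs each.

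Dntt, also a gene of the rule, was higher by 2.57 with all cells and 1.90 without the set-apart ones, but both values rest on single cells. With all members, 14 and 5 of its 27 UMIs lay in the 2 cells that lack B identity. Without them 7 of 8 lay in the seventh cell, and without that cell 1 UMI was left, 52.1 against 68.5 CPM (-0.40, -5.71 to 2.11). The MYC-induced list gave a share near the background. Of 35 tested genes 3 were higher and none lower, beside 7.4% higher among all genes, with a median of 0.39 against -0.21. Without the set-apart cells 2 were higher and 2 lower, with a median of -0.24 against -0.51.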

How the data were processed

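Single-cell RNA of mouse bone marrow was measured in 2 libraries, 1 per genotype, prepared with the Chromium Single Cell 3′ kit (v2) per the labels' protocols. The authors deposited a matrix of UMI counts for each library, all whole numbers, and its header names Cell Ranger 6.0.0 as the software. The submitters' processing notes name Cell Ranger 6.0, Seurat, GRCm38 and mm10. How barcodes were called as cells is not given in the sources used here.

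B progenitors were found by the rule given in the report, on 13251 control and 10543 MYC barcodes with at least 1000 UMIs and under 10% mitochondrial UMIs. Nothing was corrected for free RNA, and marked doublets (Scrublet in scanpy 1.11.5, each library on its own) stayed in and were left out as an alternative. UMIs were summed per group of cells, divided by the group's total and given as CPM. Intervals are exact Poisson (levels), exact conditional binomial (ratios), Clopper-Pearson (shares) and Newcombe (the difference of shares), at 95%. A gene was called at a mean of at least 50 CPM, at least 2-fold, with an interval that excludes 1. List medians are of log2 ratios with 1 CPM added, over genes with at least 20 UMIs. Cells are not replicates and there is 1 library per genotype, so nothing was tested.

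The genes named are those of the lists with at least 20 UMIs or a call, and the 12 highest and 12 lowest ratios per comparison, leaving out immunoglobulin, haemoglobin, sex-linked, mitochondrial, ribosomal protein and rule genes. Members and lists were chosen with earlier results of these data known. Genes shown as background in other cells (Mcpt8, Mpo, Lyz2, Hba-a2, Siglech) were named after their values were seen. The calls were checked on simulated counts with known changes: they were recovered less often, and unchanged genes called more often, for the MYC comparison than for the dividing one, most so when very abundant genes changed and shifted the totals. Sequences are RefSeq's (GRCm38.p6), searched with numpy 2.4.6 and pandas 2.3.3 in python 3.11.15.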

Additional observations from a re-analysis of the deposited data

How the results depend on the processing

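Alternatives were chosen with earlier results of these data known, and those marked as added after the data were seen were chosen later still. MYC minus control in the share of progenitors stayed negative in every alternative. It was -1.15 percentage points under 5% mitochondrial UMIs, -0.881 with at least 4 UMIs of the progenitor genes, -0.232 with every barcode thinned to 1000 UMIs and, added, -2.09 with at least 1 UMI. The Dntt-positive share of control members was 19.5% with at least 4 UMIs, 18.4% with at least 1 UMI of Cd79a and Cd79b (added) and 4.27% with members thinned to 2000 UMIs, where the dividing share was 34.6%. Genes lower in the MYC members numbered 54 with at least 4 UMIs of Cd79a and Cd79b, 199 with the 20 most abundant genes left out of the total, 320 by median-of-ratios scaling and, added, 51 without the set-apart cells. Genes higher there numbered 77 by median-of-ratios scaling and 315 with a mean of at least 20 CPM. At 20 CPM, 970 genes were higher and 644 lower in dividing cells, and 443 higher in Dntt-positive non-dividing cells, since more genes were then counted. The log2 ratio of Igkc, MYC over control members, changed sign: it was -1.47 over all members, 0.84 with at least 4 UMIs of the progenitor genes and 1.28 without the set-apart cells, with 1 CPM added. Without them the plasma-like control cell, which gave 6079 of 8319 Igkc UMIs, is out. With each of the 5 MYC cells that have B identity also left out in turn (added), Igkc was -0.82 without the first cell, which held 63 of 78 UMIs, and 1.60, 1.37, 1.36 and 1.93 without each of the other four, in the order given in the report. Signs also changed for Dntt (-0.39 without the seventh cell), Cd74 (0 UMIs and -7.14 without the first), Ighm (0.034 and 0.33 without the sixth and the seventh) and Rag1 (0.011 and 0.064 without the third and the seventh). Among genes of this comparison under the 2-fold limit at first, Ebf1 ran from -0.89 to 0.79, Cd79a from -1.20 to 0.60 and Vpreb3 from -0.44 to 1.37. So 8 of the 12 genes followed between the libraries had no direction that held in every setting. Between control groups, Cd74 took the other sign in the Dntt-positive against Dntt-negative comparison (-2.94 without the set-apart cells), the only 1 of 19 genes there, and 0 of 21 did between dividing and non-dividing cells. The causes of the other changes were not tested. Of the values that compare groups as a whole, 60 stayed near the first value and 17 moved. Of the values of single genes, 194 stayed, 106 moved and 12 that had been called changed sign. No paired analysis was possible because each genotype had 1 library.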
